A study of Mus musculus with 6 samples.

Results

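The cytosolic ribosomal protein genes of mouse bone marrow derived macrophages were compared between cells given RIP1i and cells given DMSO, the solvent control. Members were the genes whose symbol has the form of a large subunit (Rpl, Rplp) or small subunit (Rps) protein, with at least 10 counts in each of the 6 libraries. Rows named as pseudogenes (-ps), the Rps6k kinases and Rps27a, a fusion of ubiquitin with a small subunit protein, were left out. This gave 84 genes of 52459 in the table, 51 of the large and 33 of the small subunit, and all 84 were among the 14857 genes with enough reads for a test. The RIP1i group held 3 libraries and the DMSO group 3 libraries, all from C57BL/6 marrow cells that were grown with GM-CSF and treated overnight from day 7. The labels give no genetic change in either group, no compound or dose for RIP1i and no age of the animals. They do not say whether libraries of a group came from separate cultures, so a p-value reflects library-to-library spread alone, part or all of which may be technical.

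A ribosome joins a large and a small subunit, each built from ribosomal RNA and one copy of most of its proteins, and the acidic stalk proteins of the large subunit are an exception present in several copies. Most ribosomal protein mRNAs begin with a C followed by a run of pyrimidines, the terminal oligopyrimidine (TOP) motif, through which mTORC1 and the RNA-binding protein LARP1 control their translation together. Some ribosomal proteins have paralogs that are used in particular tissues, and some act outside the ribosome, such as Rpl5 and Rpl11, which bind the p53 inhibitor Mdm2 when ribosome assembly is disturbed. RIP1 is a kinase that relays signals of the TNF receptor.

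Of the 84 members, 61 matched the RefSeq promoter table of build GRCm38.p6, with 73 annotated transcript starts. A pyrimidine run was searched as C followed by at least 4 of C or T, beginning within 10 bases of the start on the gene's own strand. A stretch that reached further upstream was counted from its first C inside these bases, as in Rps27l. Such a run was present in 38 of these 61 genes (62.3%). The share was 33.3% of all genes in the table, 36.4% of the genes tested here and 43.5% of the mitochondrial ribosomal protein genes. The starts are annotated and were not measured in these libraries. The windows below cover 15 bases on each side of such starts, with the run as counted in capitals. They show 4 members with a run longer than the median (Rps6, Rpl15, Rps18, Rpl35) and 4 members in which no run was found. The median run was 8 bases, and the longest, not shown here, was 20 bases. Both genes of the Rps27 and Rpl39 pairs described later are also shown, each with a run near an annotated start. The Rps27l run, as marked, ends before the start, and that of Rpl39 begins after it.
Rps6 (chr4:86857353-86857382, minus strand): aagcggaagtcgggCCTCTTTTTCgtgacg
Rpl15 (chr14:18270972-18271001, minus strand): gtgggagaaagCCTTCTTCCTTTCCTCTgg
Rps18 (chr17:33955651-33955680, minus strand): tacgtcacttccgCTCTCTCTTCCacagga
Rpl35 (chr2:39005117-39005146, minus strand): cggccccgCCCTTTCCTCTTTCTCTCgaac
Rps27 (chr3:90213634-90213663, minus strand): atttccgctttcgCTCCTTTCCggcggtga
Rps27l (chr9:66946071-66946100, plus strand): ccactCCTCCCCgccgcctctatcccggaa
Rpl39 (chrX:37085208-37085237, minus strand): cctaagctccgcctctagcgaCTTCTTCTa
Rpl39l (chr16:10170213-10170242, plus strand): ctcccaggCCTTTCCggatttccggtggtc
Rplp0 (chr5:115559452-115559481, plus strand): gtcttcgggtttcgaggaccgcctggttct
Rps3 (chr7:99483695-99483724, minus strand): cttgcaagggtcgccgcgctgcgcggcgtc
Rpl24 (chr16:55966260-55966289, plus strand): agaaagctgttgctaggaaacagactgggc
Rpl7l1 (chr17:46782642-46782671, minus strand): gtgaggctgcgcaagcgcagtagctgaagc
In level per length, given below as FPKM, Rplp0 was near the top of the large subunit and Rpl24 near the bottom. The absence of these letters from an annotated window thus went with high as well as low levels. The median was 116 FPKM in the 38 members with a run and 167 FPKM in the 23 without, a difference that was not tested. The ETS-type motif CCGGAAG, searched on both strands over 250 bases before to 50 after the start, occurred in 41.0% of member genes, against 9.93% of all genes in the table and 2045 of the 10234 genes tested that have an entry. It was in 37.7% of the mitochondrial ribosomal protein genes. GGGCGG, the core of an Sp1 site, occurred in 60.7% of member genes, 38.2% of all genes and 67.4% of those tested. TATAAA was present in 11.5% of member genes, 15.7% of all genes and 8.79% of those tested. CACGTG, the E-box that MYC binds, was in 9.84% of member genes, 8.09% of all genes and 11.7% of those tested. For both motifs the side on which the members fell depended on the set beside them. A match is a description of the letters and not of a bound site.

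The members were among the well-covered genes of these libraries, which held 40264902 to 44862310 counts each. In 77 of the 84 members every library had at least 1000 counts. The lowest members just inside the threshold were Rps3a3 with a lowest library of 11 counts, Rpl6l with 25, Rps3a2 with 28, Rpl39l with 31 and Rpl3l with 60. Just outside it, Rps12l1 had 4, 1 and 1 counts in the RIP1i libraries and 1, 0 and 5 in the DMSO libraries. Rpl10l, a germ cell paralog of Rpl10, had 0 in all 6. GENCODE M21 annotates 80 members as protein coding, 50 of the large and 30 of the small subunit. It annotates Rpl6l, Rps3a2, Rps3a3 and Rps4l as pseudogenes. How reads that match several places were counted is not given in the sources used here, so members with near-identical copies, these 4 included, carry an uncertainty that the counts do not show. The 276 rows named as -ps copies of ribosomal protein genes held 27755 counts in all, 0.45% of the 6161821 counts of the members.

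Per length, the coding members of the small subunit had a median of 184 FPKM (fragments scaled by gene length and library size, as deposited) and those of the large subunit 116 FPKM. The middle 50% of genes lay between 113 and 274 FPKM in the small subunit and between 61.1 and 243 FPKM in the large one. Rplp1, an acidic stalk protein that recruits translation factors, was the most abundant member at 1330 ± 92.7 FPKM in RIP1i and 1330 ± 29.5 FPKM in DMSO (SD, n = 3 each). Rpl8, a protein near the catalytic centre, followed at 789 ± 57.2 FPKM in RIP1i and 796 ± 23.2 FPKM in DMSO, and Rplp0, the base of the stalk, at 678 ± 57.3 and 682 ± 26.6 FPKM. The range of Rplp1 over the libraries was clear of that of Rpl8. The ranges of Rpl8 and Rplp0 overlapped, although Rpl8 was the higher gene within every library. Rpl32 closed the top 4 of the large subunit at a mean of 510 FPKM. In the small subunit Rps3a1 was highest at 483 FPKM, and Rps15 at 466 and Rps4x at 377 were also near the top, as means over the 6 libraries. Ranges over the 6 libraries were clear between neighbours in the order at 9 of 49 steps in the large subunit. In the small subunit they were clear at 6 of 29 steps. Overlapping ranges do not show that neighbours were alike, because a shift of a library shared by both genes widens each range. Such a pair can keep its order within every library, as Rpl8 and Rplp0 did. The order within libraries was not counted for the other pairs.

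**Figure D1:**
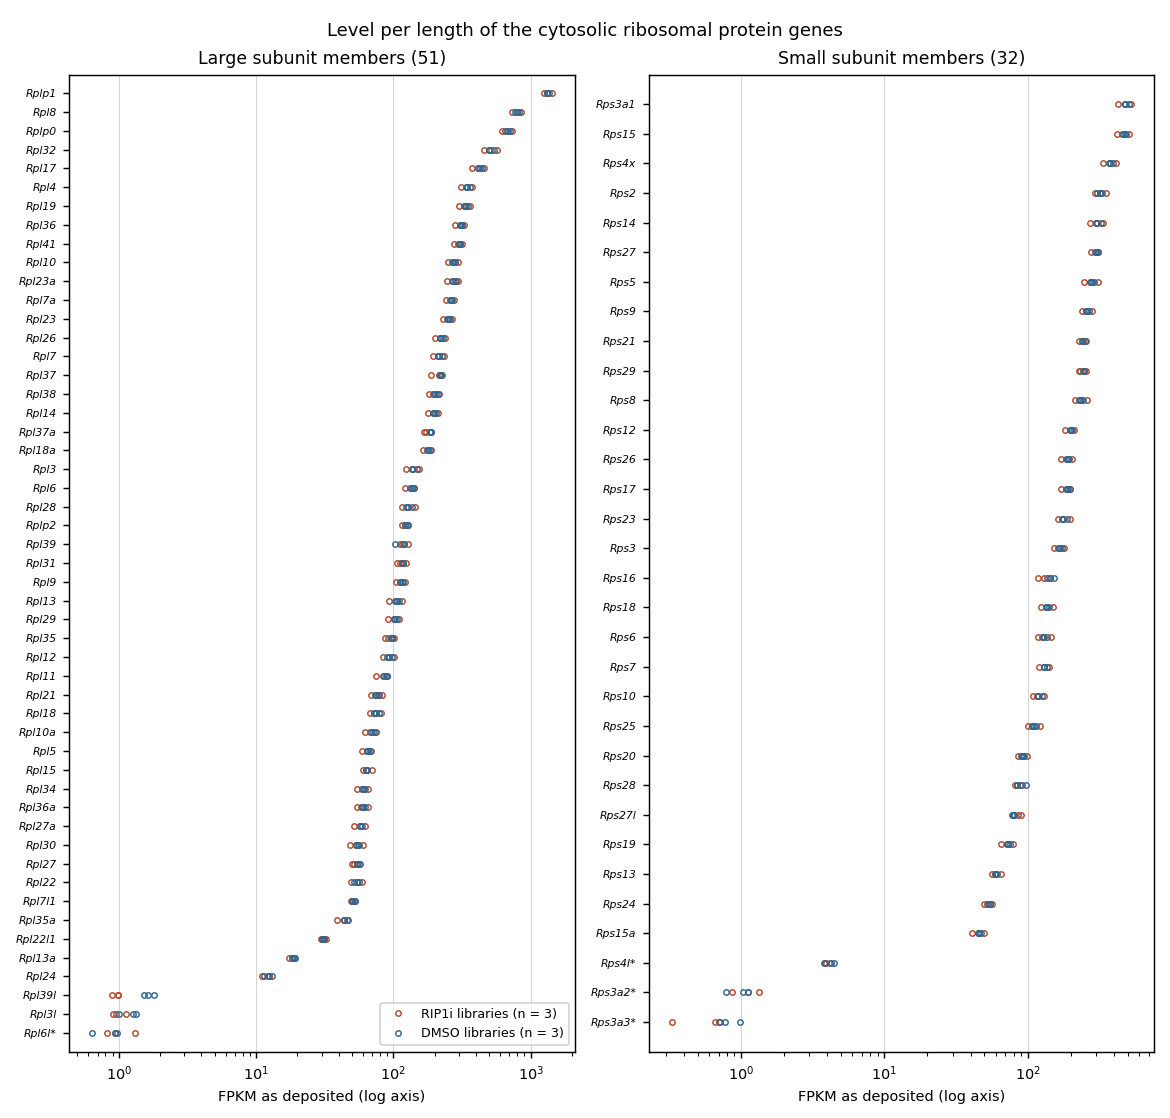
FPKM as deposited (log axis) of 83 members, one row per gene and one point per library, large subunit left and small subunit right; asterisks mark the 4 members annotated as pseudogenes. The large subunit runs from Rplp1 at a mean of 1330 FPKM to below 2 FPKM for Rpl39l, Rpl3l and Rpl6l, and the points of a gene lie close together compared with the distance between genes.

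At the low end of the coding large subunit members stood Rpl13a at 18.4 FPKM, Rpl24 at 12.1, Rpl39l at 1.3 and Rpl3l at 1.1. Rpl13a, a protein with a role in silencing inflammatory mRNAs in human monocytes, shares 621 of its 2114 exon bases with the gene Gm45713 on the same strand. Rpl24, a protein of the bridge between subunits, shares 484 of 1030 exon bases with Gm28037 on the same strand. Both overlapping genes were listed with 0 counts, and the part of this overlap in the low values was not tested. At the low end of the small subunit were Rps19 at 72.8 FPKM, Rps13 at 60, Rps24 at 53.3 and Rps15a at 45.6. The length that the deposited FPKM implies was a median of 2.32 times that of the principal transcript, with a range from 1.0 to 9.82 times. With counts per kilobase of the principal transcript, an alternative added after seeing the data, Rps15a ranked 19 and Rps19 ranked 11 among the coding small subunit members. The order of the 80 coding members kept a Spearman correlation of 0.74 with the order by FPKM, so the lowest ranks of the small subunit depend on the length used.

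RIP1i and DMSO cells gave ribosomal protein genes nearly the same share of counts. The 84 members took 2.39%, 2.64% and 2.17% of all counts in RIP1i libraries 1 to 3, and 2.42%, 2.41% and 2.53% in DMSO libraries 1 to 3. The highest and the lowest of the 6 values were both in RIP1i libraries, and the DMSO values lay between them. The means were 2.40 ± 0.23% in RIP1i and 2.45 ± 0.066% in DMSO (SD, n = 3 each), a difference of -0.052 percentage points that is smaller than the spread of the RIP1i libraries. Leaving out RIP1i replicate 2 made it -0.17, and leaving out RIP1i replicate 3 made it 0.062, so single libraries set its sign. In RNA from a whole culture, fewer cells of a type and less RNA per cell cannot be told apart. The log2 ratio of large to small subunit counts was 0.477, 0.462 and 0.475 in RIP1i libraries 1 to 3 and 0.476, 0.480 and 0.470 in DMSO libraries 1 to 3. Its means were 0.471 ± 0.0081 in RIP1i and 0.475 ± 0.0050 in DMSO, and the groups overlapped.

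None of the 84 members was called different in RIP1i relative to DMSO, and neither was any other gene (0% of the 14857 genes at an adjusted p under 0.05 in edgeR's quasi-likelihood test). At an unadjusted p under 0.05 there was 1 member, Rpl39l, where 6.21% of all genes tested had such a p. The fitted log2 fold change, RIP1i over DMSO, was below 0 in 70 members and above 0 in 14, where 49% of all genes were fitted lower and 51% higher. The differences themselves were small, with a median of -0.020 over the members and 0.0026 over all genes tested. The count also rested on single libraries, since leaving out RIP1i replicate 3 gave 66 members fitted higher, leaving out DMSO replicate 3 gave 42, and leaving out RIP1i replicate 2 gave 6. Large subunit members had a median of -0.023 with 9 of 51 fitted higher, and small subunit members a median of -0.012 with 5 of 33. In 79 of the 84 members both ends of the 95% confidence interval were less than 1.5-fold from no difference, as in 10841 of the 14857 genes tested.

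**Figure D2:**
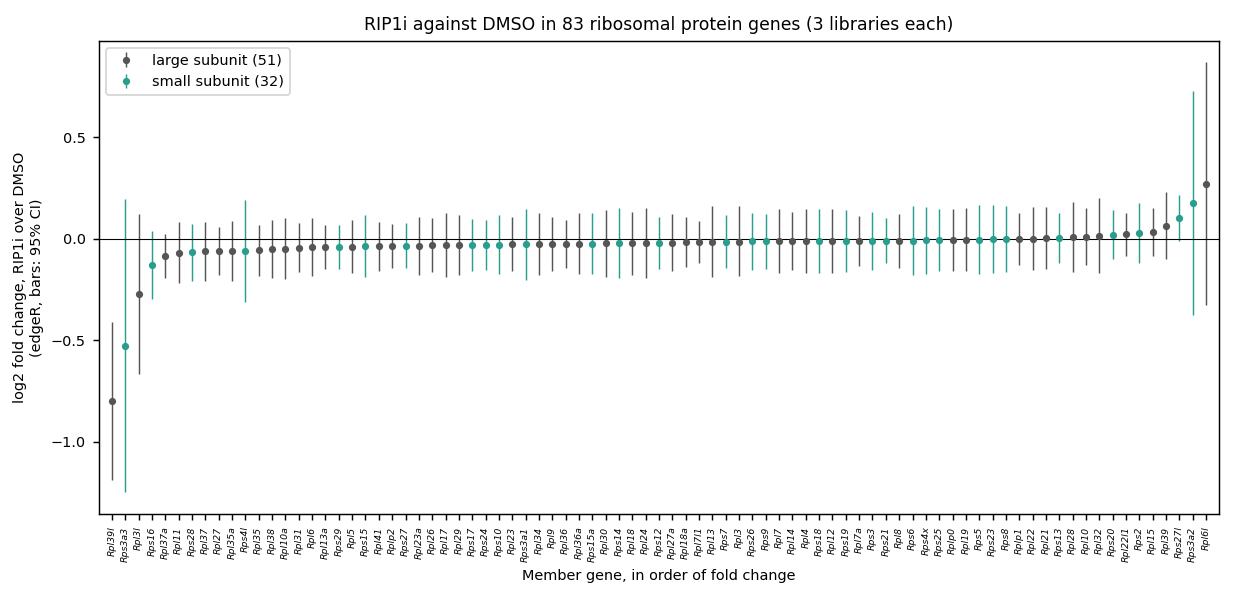
Log2 fold change of RIP1i over DMSO with its 95% confidence interval (edgeR, 3 libraries in each group) for 83 members in order of fold change, coloured by subunit. Most genes lie close to 0 with narrow intervals, and the wide intervals at both ends belong mainly to members with few counts such as Rps3a3, Rps3a2 and Rpl6l.

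The 5 members with the smallest p among those fitted lower did not pass. Rpl39l, a paralog of the exit tunnel protein Rpl39 best known from male germ cells, had 33, 31 and 34 counts in RIP1i libraries and 67, 55 and 57 in DMSO libraries. All 3 RIP1i values were below the DMSO values, and its log2 fold change was -0.80 ± 0.17 (SE; edgeR adjusted p = 0.777). Rpl37a, a zinc finger protein of the large subunit, was at 243, 263 and 238 CPM in RIP1i and 261, 262 and 266 CPM in DMSO, with groups that overlapped and a log2 fold change of -0.084. Rps16, a small subunit protein near the decoding region, was at 166, 182 and 151 CPM in RIP1i and 181, 172 and 192 CPM in DMSO, with a log2 fold change of -0.13 that ran from -0.20 to -0.071 with single libraries left out. Rps3a3 and Rpl3l had -0.53 and -0.27 from few counts, and Rps3a3 ran from -0.73 to -0.26 in the same way. Adjusted p was 0.793 for Rpl37a and Rps16, 0.805 for Rps3a3 and 0.811 for Rpl3l in edgeR.

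Among members fitted higher, the smallest p belonged to Rps27l, a paralog of Rps27 that is a target of p53. It was at 70.2, 73.4 and 65.5 CPM in RIP1i and 65.3, 64.1 and 65.4 CPM in DMSO. The lowest RIP1i library stood just above the highest DMSO library on this scale, while in the deposited FPKM the groups overlapped, with 79.6 FPKM in RIP1i replicate 3 against 80.4 FPKM in DMSO replicate 3. The log2 fold change was 0.10 with a 95% interval from -0.011 to 0.22 (edgeR adjusted p = 0.781), and 0.064 without RIP1i replicate 2. The next were Rpl6l at 0.27, Rpl39 at 0.065, Rps3a2 at 0.18 and Rpl15 at 0.031, with adjusted p between 0.878 and 0.931. Rpl39 and Rpl15 changed sign when a library was left out, and Rpl6l ran from 0.058 to 0.40. Rpl39l and Rps27l were the members whose groups did not overlap in CPM, 1 lower and 1 higher, where 6.18% of all genes tested were lower without overlap and 7.36% higher.

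The libraries of the RIP1i group differed more from each other in these genes than the groups did. RIP1i replicate 2 was the highest of the 6 libraries in 69 of 84 members and RIP1i replicate 3 the lowest in 75. Both held in 66 members (78.6%), where 7.46% of all genes tested had that order. Relative to each gene's mean, the median log2 level of the members was -0.0057, 0.099 and -0.13 in RIP1i libraries 1 to 3, and -0.0082, -0.0079 and 0.047 in DMSO libraries 1 to 3. RIP1i replicate 2 exceeded RIP1i replicate 3 by a median of 1.17-fold. These values describe libraries within a group and not an effect of RIP1i.

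**Figure D3:**
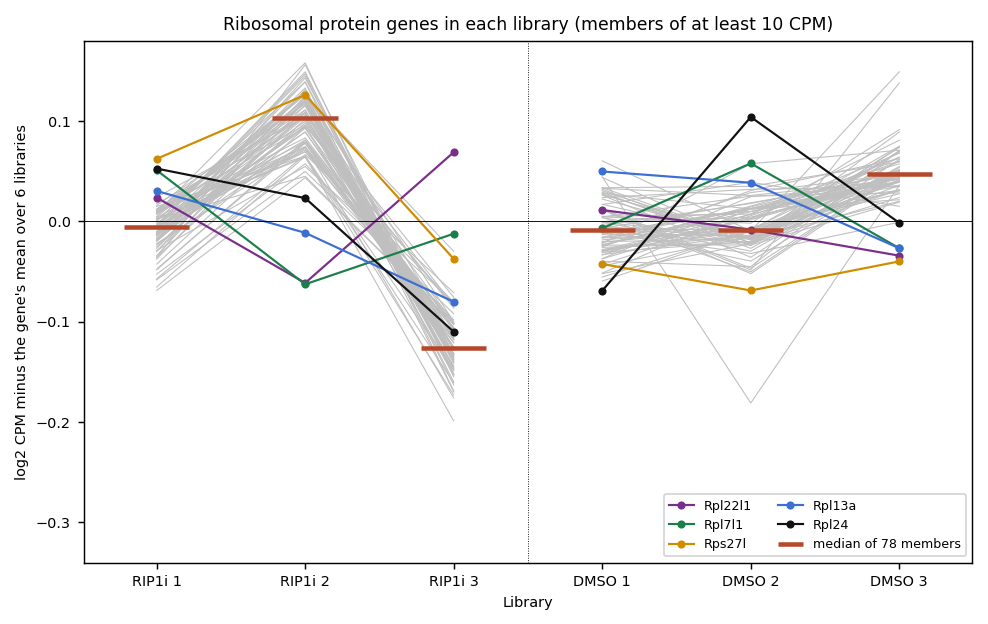
Log2 CPM minus the gene's own mean over 6 libraries (vertical axis) in each library (horizontal axis, RIP1i left of DMSO) for the 78 members of at least 10 CPM; grey lines are genes, coloured lines are 5 named genes and bars are medians. Most lines peak in RIP1i replicate 2 and dip in RIP1i replicate 3, and those of Rpl22l1, Rpl7l1, Rpl13a and Rpl24 do not peak there.

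The remaining 18 members had another library highest or lowest. Rpl11, Rpl37a and Rps16, for example, were highest in DMSO replicate 3. Among the 78 members of at least 10 CPM, RIP1i replicate 2 minus RIP1i replicate 3 ran from -0.13 to 0.31 on the log2 scale, and its lowest value belonged to Rpl22l1. Rpl22l1, whose RNA is repressed by its paralog Rpl22 in mice, was at 62.8, 59.2 and 64.8 CPM in RIP1i and 62.3, 61.4 and 60.3 CPM in DMSO. Rpl7l1 was at 137, 127 and 131 CPM in RIP1i and 132, 138 and 130 CPM in DMSO. In both genes RIP1i replicate 2 was the lowest of the 6 libraries, the reverse of most members. Members with a pyrimidine run near an annotated start had a median RIP1i replicate 2 minus replicate 3 of 0.22 (n = 38). Those without one had 0.21 (n = 23), so the order of the libraries was shared by both.

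The TOP mRNAs that encode other proteins followed the same libraries. Of 20 such genes, all tested and none called, 12 had RIP1i replicate 2 highest and RIP1i replicate 3 lowest. Their median levels were 0.0059, 0.11 and -0.10 in RIP1i libraries 1 to 3, and -0.021, -0.027 and 0.037 in DMSO libraries 1 to 3. The elongation factor gene Eef1a1, the most abundant of those examined, was at 5410, 5970 and 4940 CPM in RIP1i and 5190, 5180 and 5520 CPM in DMSO, and its groups overlapped. The same order was found in 4 of 44 ribosome biogenesis factors and in 15 of 78 mitochondrial ribosomal protein genes (19.2%). The shares were not tested against each other.

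Markers of other cell types also moved between these libraries. The summed level of 8 neutrophil and precursor markers was 465, 659 and 223 CPM in RIP1i libraries 1 to 3 and 458, 227 and 626 CPM in DMSO libraries 1 to 3. The 8 stromal markers summed to 271, 109 and 239 CPM in RIP1i and 252, 415 and 164 CPM in DMSO. The 8 macrophage markers summed to 50880, 44080 and 53630 CPM in RIP1i and 52980, 58690 and 50780 CPM in DMSO, so macrophage transcripts were abundant in every library, as the label states. The 6 dendritic cell markers, mostly Itgax, summed to 1364, 1457 and 1313 CPM in RIP1i and 1221, 1206 and 1365 CPM in DMSO. Relative to each gene's mean, their median log2 level was highest in RIP1i replicate 2 (0.19) and lowest in RIP1i replicate 3 (-0.17). Taken singly, 1 of the 6 markers had that order. None of the 5 erythroid markers had enough reads for a test. Mitochondrially encoded genes took 1.3%, 1.3% and 1.8% of counts in RIP1i and 1.7%, 1.1% and 1.4% in DMSO. RIP1i replicate 2 had the highest neutrophil and the lowest stromal sum, and RIP1i replicate 3 the lowest neutrophil sum. The macrophage sum is mostly Lyz2, and 4 of its 8 markers were lowest in RIP1i replicate 2 while 1, Adgre1, was highest there. The part of these markers in the ribosomal protein levels was not tested. Without RIP1i replicate 2 and DMSO replicate 2, the libraries lowest and highest in stromal markers, the median log2 fold change of the members was -0.098 with 5 fitted higher, an alternative added after seeing the data.

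**Figure D4:**
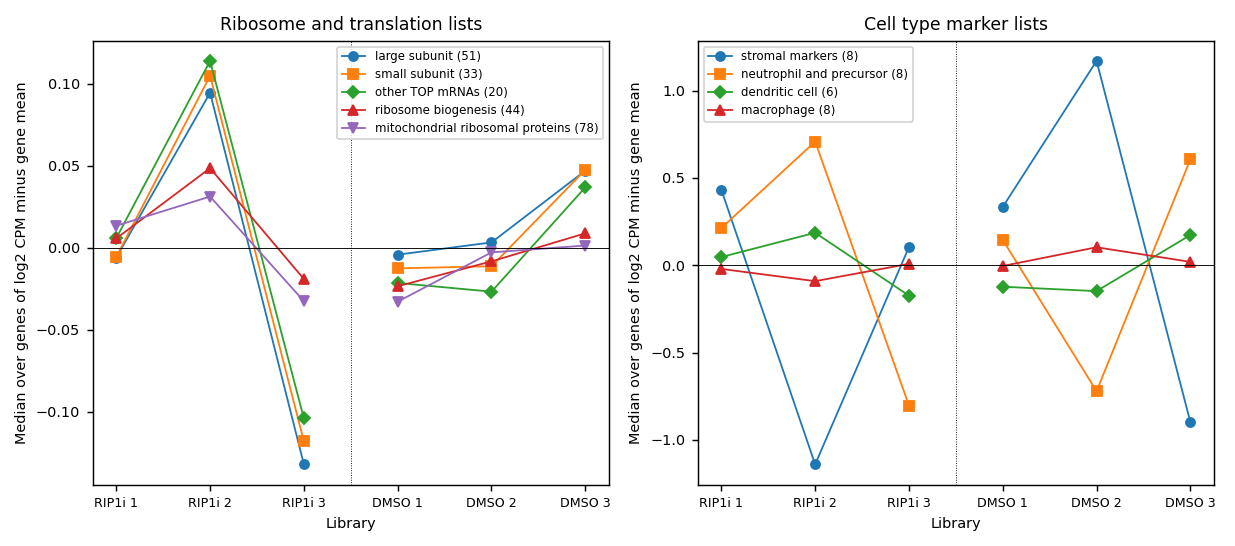
Median over genes of log2 CPM minus each gene's mean (vertical axis) in each library (RIP1i left of DMSO), for ribosome and translation lists on the left and marker lists on the right, with the number of genes tested in brackets. Large subunit, small subunit and other TOP genes peak in RIP1i replicate 2 and are lowest in RIP1i replicate 3. The axis on the right is wider, and neutrophil and stromal markers span over 1 log2 unit.

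Paralogs were set against their main genes as the log2 ratio of counts in each library, which cancels what both genes share. With 3 libraries against 3 the smallest p of the exact 2-sided permutation test is 0.1, so no pair could pass 0.05, and p was adjusted over 7 pairs. Rpl39l over Rpl39 was -7.65, -7.92 and -7.61 in RIP1i and -6.82, -6.73 and -7.07 in DMSO. All 3 RIP1i ratios were below all DMSO ratios, with a difference of -0.86 (exact permutation p = 0.1, adjusted p = 0.35). Rpl39l made up 0.489%, 0.404% and 0.502% of the pair's counts in RIP1i and 0.872%, 0.926% and 0.734% in DMSO.

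Rps27l over Rps27 was -2.15, -2.13 and -2.15 in RIP1i and -2.25, -2.30 and -2.29 in DMSO. All 3 RIP1i ratios were above all DMSO ratios, and the difference of 0.14 was larger than the SD of 0.011 in RIP1i and 0.029 in DMSO (exact permutation p = 0.1, adjusted p = 0.35). Rps27l was 18.4%, 18.6% and 18.4% of the pair in RIP1i and 17.4%, 16.9% and 16.9% in DMSO. The interval between the groups' nearest libraries was thus small in percentage points, and Rps27l remained the lesser gene of the pair in every library.

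The other pairs overlapped between the groups. Rpl22l1 was 28.4%, 25.7% and 31.1% of its pair with Rpl22, a protein needed in T cell development, in RIP1i, and 28.3%, 28.8% and 27.0% in DMSO. Rpl7l1 was 19.3%, 16.8% and 19.8% of its pair with Rpl7 in RIP1i and 18.9%, 19.4% and 17.6% in DMSO. The differences in log2 ratio were 0.023 and -0.00093, with RIP1i libraries on both sides of the DMSO range. Rpl3l, the striated muscle paralog of Rpl3, differed by -0.25 (exact permutation p = 0.3, adjusted p = 0.525) and was below 0.5% of the pair in all libraries. Rps4l over Rps4x differed by -0.044 (exact permutation p = 0.9). Rpl36al over Rpl36a, a pair whose first gene lies outside the rule, was -2.97, -3.13 and -2.96 in RIP1i and -3.11, -3.27 and -3.26 in DMSO, a difference of 0.20 (exact permutation p = 0.2, adjusted p = 0.467).

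**Figure D5:**
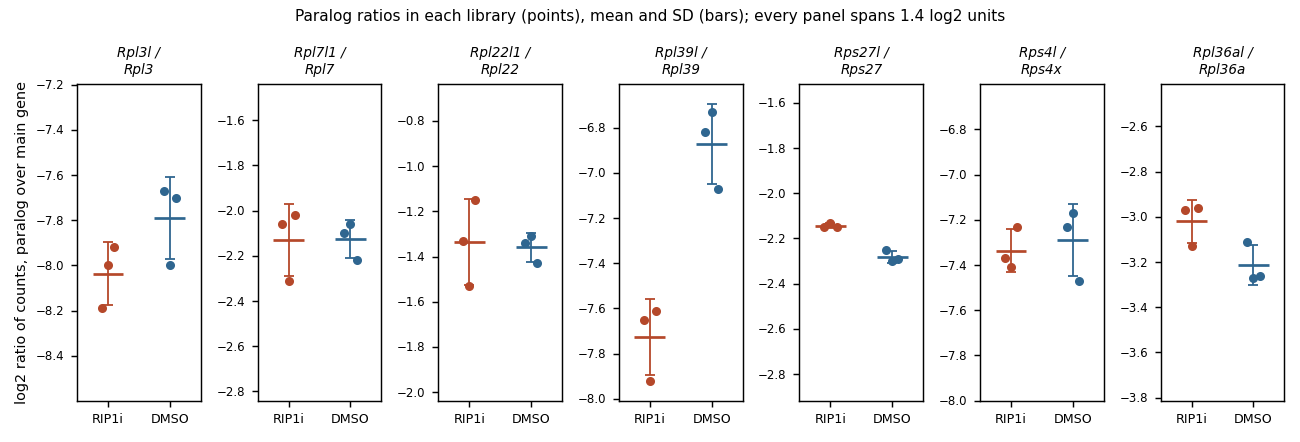
Log2 ratio of paralog to main gene counts (vertical axis, each panel spanning 1.4 log2 units) in RIP1i libraries left and DMSO libraries right, with points for libraries, a bar for the mean and whiskers for the SD (n = 3 each). The points of the groups are apart for Rpl39l/Rpl39 and Rps27l/Rps27 and overlap in the other pairs.

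A list of 20 members with well-studied functions, in the ribosome (the stalk proteins, Rpl24, Rpl39) or outside it (Rpl5, Rpl11), held no call. Of these, 3 were fitted higher and 17 lower, with log2 fold changes from -0.068 to 0.065 and a median of -0.014. Rpl5 was at 252, 269 and 233 CPM in RIP1i and 254, 258 and 263 CPM in DMSO. Its partner Rpl11 was at 232, 242 and 205 CPM in RIP1i and 228, 241 and 243 CPM in DMSO. Rps6, the substrate of the S6 kinases, was at 202, 231 and 188 CPM in RIP1i and 205, 205 and 214 CPM in DMSO. Rps19, mutated in Diamond-Blackfan anaemia, was at 344, 368 and 308 CPM in RIP1i and 337, 339 and 353 CPM in DMSO. In Rpl5, Rps6 and Rps19 RIP1i replicate 2 was highest and RIP1i replicate 3 lowest, and in Rpl11 DMSO replicate 3 was highest and RIP1i replicate 3 lowest.

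Ribosomal proteins outside the naming rule were close to the members. Rack1, the signalling scaffold on the small subunit, was at 1080, 1170 and 987 CPM in RIP1i and 1060, 1090 and 1120 CPM in DMSO. Rpsa, Fau and Rps27a had the same highest and lowest libraries. Rpl36al was at 12.4, 12.3 and 11.6 CPM in RIP1i and 11.5, 10.3 and 10.6 CPM in DMSO, with a log2 fold change of 0.17 (edgeR adjusted p = 0.777).

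The genes that make ribosomes or control the use of their mRNAs gave no call either. Of 44 ribosome biogenesis factors tested, 27 were fitted higher and 17 lower, with a median of 0.014. Ncl, the nucleolar protein nucleolin, had the smallest p of this list. It was at 183, 194 and 175 CPM in RIP1i and 146, 156 and 160 CPM in DMSO. All its RIP1i values were above all DMSO values, where 7.36% of all genes tested were higher without overlap. Its log2 fold change was 0.26 ± 0.053 (SE; edgeR adjusted p = 0.777). Gnl3l, a nucleolar GTPase, had 0.11 and Nolc1, a nucleolar phosphoprotein, -0.091. Of 15 RNA polymerase I genes, 7 were fitted higher and 8 lower. Of 17 genes of mTORC1, LARP1 and MYC, 5 were fitted higher and 12 lower, with Eif4ebp2, a translation repressor, at -0.14 and Rptor, the mTORC1 scaffold, at -0.12. Of 14 initiation genes, 10 were fitted higher, with Eif5b, which joins the subunits, at 0.15.

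Of 10 genes of the response to free ribosomal proteins through p53, 6 were fitted higher and 4 lower. Trp53 itself was at 32.8, 34.3 and 34.1 CPM in RIP1i and 40.5, 37.6 and 37.2 CPM in DMSO, with no overlap and a log2 fold change of -0.19 ± 0.049 (SE; edgeR adjusted p = 0.777). Trp53 had the smallest p of this list, and 6.18% of all genes tested were lower without overlap. Its targets Phlda3 and Ccng1 had -0.20 and 0.17. Npm1, a nucleolar chaperone with a TOP mRNA, had 0.11, and Hnrnpa1, an RNA-binding protein also in the TOP list, -0.12. None of these genes passed.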

How the data were processed

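Messenger RNA of 6 libraries was read from 2 tables. The authors deposited raw read counts per gene, and the authors' second deposited table holds FPKM for those genes. STAR 2.5.3a, Subread 1.4.6-p3 with featureCounts, CASAVA 1.8.4, DESeq2 1.14.0 and genome mm10 are named per the submitters' processing notes. Not given in the sources used here are what each tool did, the gene models, the strand setting and how reads with several matches were counted. Without a known strand setting, reads of a member and of an overlapping gene on the opposite strand cannot be told apart.

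Counts were filtered with filterByExpr (minimum count 10, minimum total 15), scaled with TMM and tested over 14857 genes in edgeR 4.0.16 (R 4.3.3) by its 2-sided quasi-likelihood test. Treatment was the only term, and a gene was called at a Benjamini-Hochberg adjusted p under 0.05. The test was tried on simulated data first. CPM are counts scaled to library size with TMM. A prior count of 0.5 was added in paralog ratios. Alternatives used DESeq2 1.42.0, limma 3.58.1, other scalings and filters, log2(FPKM + 1) and log2(FPKM + 0.1), the replicate number as a block, and each library left out. Exon overlaps and lengths came from GENCODE M21, and start windows from RefSeq.

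The members, lists and tests were chosen with earlier results of these data known. Named genes were all members of paralog pairs, the 5 members with the smallest p in each direction, the 4 highest and lowest per subunit in FPKM, members with well-studied functions, and up to 4 genes with the smallest p of each other list; not all are printed, and some items are not reported here. Rpl5, Rpl11, Rps6 and Rps19 were picked from the roles list for what they are known for, and Eef1a1, Rack1, Rpsa, Fau and Rps27a were added after their values were seen.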

Additional observations from a re-analysis of the deposited data

How the results depend on the processing

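No member passed under any alternative in which calls were counted. Calls were not counted for scaling by library totals only. Over all genes edgeR called 0 (923 at an unadjusted p under 0.05), and so did limma-voom (910). DESeq2 with its default independent filtering called 1 gene, Arhgap4 (571 at an unadjusted p under 0.05). With that filtering set for the 0.05 threshold, a setting added after the default's count was seen, it called 2, Arhgap4 and Gm10801. The number of members fitted higher, 14, was 9 with upper-quartile scaling, 8 with library totals only, 5 without the libraries of lowest and highest stromal level, and 6 to 66 with single libraries left out. With single libraries left out, the median log2 fold change of the members ran from -0.079 without RIP1i replicate 2 to 0.030 without RIP1i replicate 3. It was -0.098, and that of the small subunit -0.097, when the stromal extremes were dropped. With 1 library left out, the difference in paralog log2 ratio ran from -0.058 to 0.090 for Rpl7l1/Rpl7, from -0.072 to 0.12 for Rpl22l1/Rpl22 and from -0.14 to 0.018 for Rps4l/Rps4x. It kept its sign for Rpl39l/Rpl39 (-0.95 to -0.76) and Rps27l/Rps27 (0.13 to 0.15). The cause of these shifts was not tested.

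Of 524 values under alternatives for 31 of the named genes, 495 kept their sign and 29 did not. Genes named only for their level or function, such as Rplp1, Rplp0, Rpl5 and Rpl11, were not among the 31. Rpl22, at 0.00085, was -0.0048 with median-of-ratios scaling and in DESeq2, -0.010 with upper-quartile scaling, -0.0020 with no filter, -0.0027 with a 1 CPM filter, -0.0022 with limma-voom, and -0.0050 and -0.0051 with log2(FPKM + 1) and log2(FPKM + 0.1). Without the stromal extremes it was -0.097, Rpl39 was -0.063, Rpl15 -0.035 and Rpl7l1 0.027, and without RIP1i replicates 2 and 3 Rpl7l1 was 0.043. With single libraries left out, the log2 fold change ran from -0.062 to 0.060 for Rpl22, -0.011 to 0.10 for Rpl39, -0.017 to 0.071 for Rpl15, -0.012 to 0.057 for Rpl22l1, -0.055 to 0.011 for Rpl7l1, -0.079 to 0.041 for Rpl7, -0.085 to 0.054 for Rpl3, -0.067 to 0.0013 for Rps27 and -0.077 to 0.055 for Rps4x.

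Same-numbered libraries did not deviate together (r = 0.0058, -0.53 and -0.48 over genes, which are not independent replicates), so the numbers were not taken as pairs. With the replicate number as a block, edgeR called 0 genes (413 at an unadjusted p under 0.05), the median log2 fold change of the members was -0.022, and Rpl22 was -0.0022. Depth limits Rps3a3, Rpl6l, Rps3a2, Rpl39l and Rpl3l.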

Other observations

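The mitochondrial ribosomal protein genes, whose products build the separate ribosome of that organelle, gave no call. Of 78 tested, 48 were fitted higher in RIP1i (51% of all genes tested were) and 30 lower, with a median log2 fold change of 0.013. With single libraries left out the number fitted higher ran from 37 to 54, and no difference from the cytosolic members was tested. Their summed level was 2020, 2047 and 1966 CPM in RIP1i libraries 1 to 3 and 1965, 2008 and 2019 CPM in DMSO libraries 1 to 3, and the groups overlapped.

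All 16 cell cycle genes tested were fitted higher in RIP1i, where 51% of all genes tested were. Their median log2 fold change was 0.11, and none was called. Relative to each gene's mean, their median log2 level was 0.055, 0.13 and -0.0325 in RIP1i libraries 1 to 3. It was -0.147, -0.0329 and 0.028 in DMSO libraries 1 to 3, so the lowest value was in DMSO replicate 1. Their summed level was 1221, 1235 and 1120 CPM in RIP1i and 1052, 1128 and 1152 CPM in DMSO, with groups that overlapped.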
